A study of Mus musculus with 4 samples.

Results

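The region described here is the end of mouse chromosome X that lies next to the centromere, from its first base to 40 Mb in the build mm10. It was cut into bins of 100 kb, and a bin was kept where it had data in all 4 matrices, which left 232 of 400 bins. The whole chromosome had 1461 such bins of 1707. The data were Hi-C, a method that joins DNA ends by ligation and sequences them to show which stretches of chromatin were near each other, in tail tip fibroblasts (TTF) of female mice. The cells were hybrids of a mus and a cas genome, so that reads could be assigned to either copy of the chromosome. There were 2 wild-type (WT) samples and 2 Sirt7-/- samples (KO), which lack SIRT7, a nuclear NAD-dependent deacylase. Both genotypes shared the hybrid background, the sex and the tissue. The labels give no age, no treatment and no information on whether the samples came from separate animals, and do not name the inactive copy.

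The authors merged the 2 samples of a genotype before deposit, which left 1 matrix for each genotype and allele. No difference below has a replicate check, and none was tested. Each entry of a matrix is a correlation coefficient that says how alike 2 bins are in their contacts along the chromosome. Read depth is unknown, and the mean correlation of adjacent bins is given in its place. Within the region this was 0.0335 on mus and 0.0743 on cas in WT, and 0.0368 and 0.0745 in KO. The SD of the entries within the region was 0.0287 on mus and 0.0437 on cas in WT, and 0.0292 and 0.0468 in KO, so that single entries spread widely next to most means reported here. This spread holds both structure and noise, which were not separated. The matrices cover chromosome X only, so neither the loss of Sirt7 nor the cell type could be checked against them.

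In female mammals 1 X chromosome per cell is silenced by the noncoding RNA Xist. On an active chromosome, gene-rich, transcribed stretches contact each other and form compartment A, while gene-poor, silent stretches form compartment B. The inactive chromosome is known to lose most of this alternation and to fold into a pair of megadomains that meet at Dxz4, a tandem repeat bound by CTCF. In mouse the whole of the region examined lies in the megadomain on the centromeric side of Dxz4. It begins and is interrupted by large blocks of recently duplicated genes expressed in the testis, and the gene-rich stretches between them hold many housekeeping genes.

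Most of the 168 bins without data lay in those duplicated blocks. The first 53 bins had no data, and the genes placed there include Btbd35f copies. How much of this stretch is a gap of the assembly was not examined. Runs of 11, 6, 50, 4 and 37 empty bins lay between positions 24200001 and 35500000. These runs hold Slx, a gene expressed in spermatids, and members of the Btbd35f and Spin2 families. Another 4 adjacent empty bins after 37200001 hold 19 genes, Rhox1 to Rhox4 copies among them, and a single empty bin holds Rhox5. Single empty bins from 8400001, with Ssxb1 and Ssxb2, and from 35800001, with no protein-coding gene, made up the rest. Rhox genes encode homeobox proteins of the reproductive tract and placenta. Of the 270 protein-coding genes placed in the region by their midpoints, 187 lay in bins with data and 83 did not. The 83 include Vamp7, Spry3 and Tmlhe, whose positions on the assembled chromosome were not checked. At 250 kb, 93 of 160 bins had data.

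The promoters of 5 genes are shown because the bins with the midpoints of these genes stood out in the compartment pattern described further on. Atp6ap2, which encodes an accessory subunit of the vacuolar proton pump, and Timm17b, a subunit of the mitochondrial import channel, lay in bins near the top of the scale on cas. Slc6a14, an amino acid transporter, lay near the bottom. Shroom4, an actin-binding protein, and Bmp15, an oocyte growth factor, lay in bins that crossed 0 between WT and KO. The promoters of Timm17b, Atp6ap2 and Shroom4 themselves lie in earlier bins than the midpoints of these genes. That of Timm17b lies in the bin at 7.8 Mb, with a compartment score of 0.0734 in WT and 0.0876 in KO on cas. That of Shroom4 lies in the bin of Bmp15. Each sequence is the part of the 250 bases before the start of transcription that lies outside the gene itself, from RefSeq on GRCm38.p6, read 5′ to 3′ on the gene's strand. Capitals mark each CG.
Atp6ap2, chrX:12587509-12587758, plus strand: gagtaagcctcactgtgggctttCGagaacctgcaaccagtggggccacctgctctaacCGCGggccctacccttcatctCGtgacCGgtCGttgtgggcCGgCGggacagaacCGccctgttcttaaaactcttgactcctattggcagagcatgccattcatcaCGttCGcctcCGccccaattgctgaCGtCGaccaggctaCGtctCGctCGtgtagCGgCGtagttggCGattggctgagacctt
Timm17b, chrX:7899086-7899335, plus strand: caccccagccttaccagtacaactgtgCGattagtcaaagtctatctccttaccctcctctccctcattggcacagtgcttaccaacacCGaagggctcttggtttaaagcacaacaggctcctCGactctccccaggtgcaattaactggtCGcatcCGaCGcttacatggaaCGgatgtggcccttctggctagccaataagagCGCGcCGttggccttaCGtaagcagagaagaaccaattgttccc
Shroom4, chrX:6399782-6399948, plus strand: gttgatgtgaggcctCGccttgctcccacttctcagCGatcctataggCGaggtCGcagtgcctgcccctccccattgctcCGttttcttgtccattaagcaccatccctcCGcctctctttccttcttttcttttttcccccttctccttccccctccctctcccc
Bmp15, chrX:6320725-6320974, minus strand: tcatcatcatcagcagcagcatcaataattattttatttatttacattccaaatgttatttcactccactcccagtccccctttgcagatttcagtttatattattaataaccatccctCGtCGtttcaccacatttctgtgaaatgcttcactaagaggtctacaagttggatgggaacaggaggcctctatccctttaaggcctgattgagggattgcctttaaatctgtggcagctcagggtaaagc
Slc6a14, chrX:21714650-21714899, plus strand: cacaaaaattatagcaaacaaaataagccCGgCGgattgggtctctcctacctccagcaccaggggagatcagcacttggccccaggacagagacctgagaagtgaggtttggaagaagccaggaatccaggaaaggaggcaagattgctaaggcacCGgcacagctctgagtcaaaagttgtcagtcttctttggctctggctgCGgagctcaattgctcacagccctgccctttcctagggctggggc
The sequence of Atp6ap2 held 20 CG and that of Timm17b 11. Shroom4 had 6 in its 167 bases, Slc6a14 had 4 and Bmp15 had 2.

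The first comparison asked how strongly the region's own bins resembled each other, over 22949 pairs of bins at least 2 Mb apart. On mus the mean correlation within the region was 0.0133 in WT and 0.0105 in KO. On cas it was -0.000432 in WT and 0.000862 in KO. The mus copy was thus above the cas copy in both genotypes, by 0.0137 in WT and 0.00963 in KO. With 250 kb bins, where fewer and larger bins are compared, the means kept these orders: on mus 0.0622 in WT and 0.0545 in KO, on cas 0.0137 and 0.0219.

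The lower mean in KO on mus was not particular to the region. Pairs elsewhere on the chromosome, at the same separations, averaged 0.0172 in WT on mus, and 0.0130 in KO. When the mean over the whole chromosome at each separation was subtracted, the difference within the region on mus turned from -0.00277 to 0.00145. On cas the pairs elsewhere had a mean of 0.0141 in WT and 0.0121 in KO, the opposite order to that within the region. The KO minus WT difference on cas, 0.00129, rested on 1 part of the region: without the bins from 20 to 30 Mb it was 1.82e-05, and without those from 10 to 20 Mb it was 0.0027. Without the bins from 0 to 10 Mb it was 0.000602 on cas and -0.00439 on mus.

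Separation mattered more on cas than on mus. On cas in WT, pairs within the region had a mean correlation of 0.0335 below 2 Mb and -0.000161 from 2 to 5 Mb, while pairs elsewhere still had 0.0233 from 2 to 5 Mb. On mus in WT the region had 0.0161 from 2 to 5 Mb and 0.00903 from 20 to 40 Mb. From 20 to 40 Mb, pairs elsewhere on mus had 0.0016, below the region. KO had the same order of region and rest as WT in every separation class on both alleles, although on mus from 10 to 20 Mb they were nearly equal, at 0.0142 and 0.0143 in WT.

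**Figure D1:**
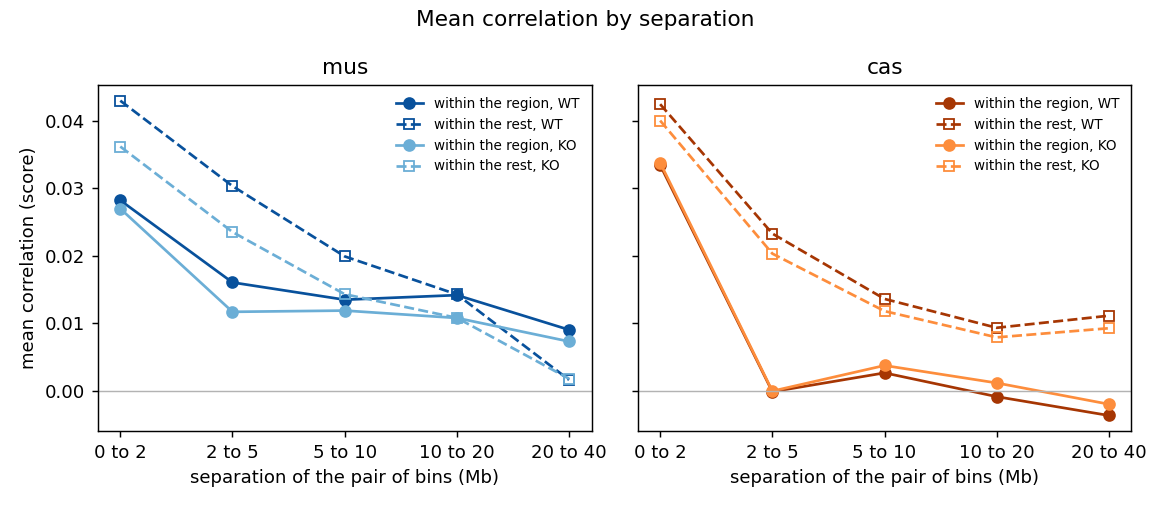
Mean correlation of pairs of 100 kb bins (vertical axis, score) against their separation in Mb (horizontal axis), for mus and cas. Filled circles are pairs within the region and open squares pairs within the rest of chromosome X, dark in WT and light in KO; on cas the region lies below the rest in every class.

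Within the region, the 4 blocks of 10 Mb had unequal means, which are not matched on separation. On mus the bins from 30 to 40 Mb had the highest mean among themselves, 0.0448 in WT and 0.0354 in KO over 387 pairs. Those from 10 to 20 Mb had the lowest, 0.0126 in WT and 0.00903 in KO over 3240 pairs. Correlations of the block from 0 to 10 Mb with that from 30 to 40 Mb were 0.00786 in WT and 0.00747 in KO. On cas the block from 20 to 30 Mb had a mean below 0 with itself, -0.0131 in WT and -0.0134 in KO over 328 pairs. Its bins at least 2 Mb apart were thus on average unlike each other. From position 24200001 on, only the bins at 25.3 and 26 Mb of this block had data. At 250 kb the mean of the block with itself was also below 0, at -0.0212 and -0.0201 over 45 pairs.

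How far the pattern of single entries was shared between WT and KO also differed between alleles. Across the pairs within the region, Pearson's r between the WT and KO entries was 0.086 on mus and 0.523 on cas. At 250 kb it was 0.369 on mus and 0.815 on cas. The pairs share bins, so r describes the 2 matrices and carries no p. Between mus and cas in the same genotype r was 0.035 in WT and 0.0543 in KO. For pairs within the rest of the chromosome, r between WT and KO was 0.192 on mus and 0.549 on cas at 100 kb.

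The second comparison set the region against the rest of the chromosome. At matched separations, pairs within the region on mus had a mean correlation of 0.0119 in WT, below the 0.0226 of pairs of 1 bin of the region and 1 bin outside it. In KO these were 0.00932 and 0.0159. The contrast between them, within minus across, on mus was therefore -0.0106 in WT and -0.00658 in KO. On cas the contrast was -0.00801 in WT and -0.00672 in KO. At equal separations the region's bins thus resembled bins beyond 40 Mb more than each other on both alleles. Without matching this did not hold on mus in either genotype. In WT the mean was 0.0133 within the region and 0.0127 with the bins from 40 Mb to Dxz4. In KO these were 0.0105 and 0.0106, and at 250 kb 0.0545 and 0.0481. Means with the segments beyond Dxz4 were lower, at -0.00711, 0.00455 and 0.00756 in WT. In KO they were -0.00517, 0.00601 and 0.00822. The contrast was nearer 0 in KO on both alleles, by 0.00407 on mus and 0.00129 on cas. The size of that difference depended on the blocks included. Without the bins from 30 to 40 Mb it was larger, at 0.00918 on mus and 0.00924 on cas, and without those from 20 to 30 Mb it was nearly gone on cas, at 9.73e-05. At 250 kb it was 0.00102 on mus and 0.00156 on cas.

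On mus the correlation of the region with the rest of the chromosome dropped at Dxz4. In windows of 5 Mb counted from the bin of 4933407K13Rik, the host transcript of Dxz4, which starts at 75.7 Mb, the region's mean correlation in WT was between 0.00682 and 0.0192 in every window between the region and Dxz4. It was 0.00682 in the last window before Dxz4 and -0.0138 in the first one after it. From there it climbed with every window to 0.00840 in the last one, 90 to 95 Mb beyond Dxz4, and crossed 0 about 30 Mb beyond it. The climb was less steady at 250 kb. There WT on mus had -0.0282 in the first window, -0.0125 from 10 to 15 Mb and -0.0256 from 20 to 25 Mb beyond Dxz4. Nor was it steady in KO at 100 kb, with -0.00312 from 20 to 25 Mb and -0.0035 in the next window. In KO the first window after Dxz4 was at -0.0101 and the last window before it at 0.00551. On cas the same 2 windows had 0.00423 and 0.00365 in WT and 0.00201 and 0.0049 in KO, so that no drop was seen there.

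**Figure D2:**
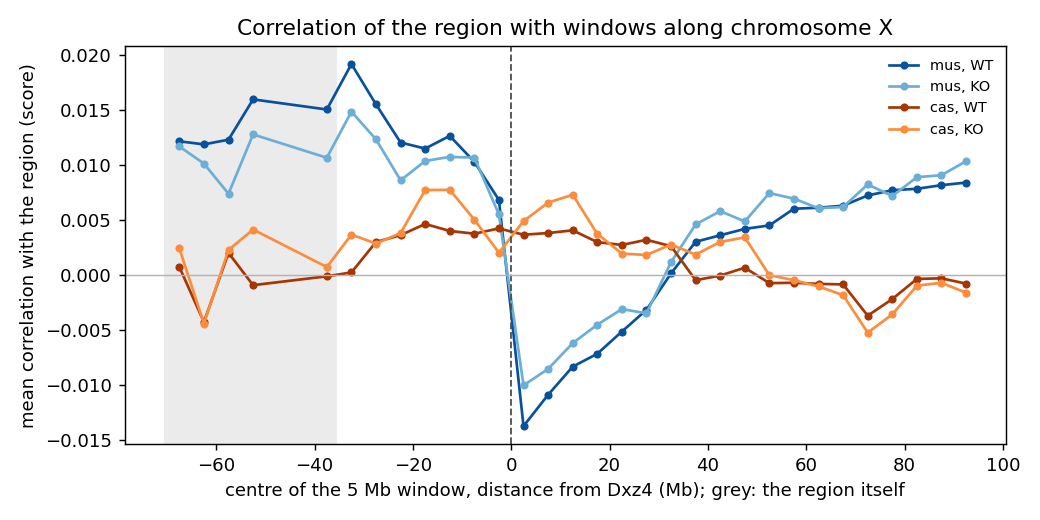
Mean correlation of the region's bins with windows of 5 Mb (vertical axis, score) against the distance of the window's centre from Dxz4 in Mb (horizontal axis), 1 line for each genotype and allele. The grey band is the region itself; both mus lines drop from above 0 to -0.0101 or lower at the dashed line, Dxz4, and climb again, while the cas lines stay between -0.00526 and 0.00774.

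Averaged over 10 Mb on each side of Dxz4, the region's mean correlation on mus was 0.00859 on the near side and -0.0123 on the far side in WT, a step of 0.0209. In KO the means were 0.00814 and -0.00931, a step of 0.0175. On cas the step was 0.0002 in WT and -0.00221 in KO. At 250 kb the step in WT was 0.0482 on mus and 0.000667 on cas, and in KO it was 0.0428 and -0.00683. Near and far windows lie at different separations from the region, so the step is not matched on separation.

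The step was then measured for each bin, as its mean correlation with the 10 Mb before Dxz4 minus that with the 10 Mb after it. This side score was chosen after the profile had been seen. On mus 216 of the 232 bins had a side score above 0 in WT and 217 in KO, against 96.3% of the 458 bins more than 12 Mb before Dxz4 in WT and 96.3% in KO. The median was 0.0206 in WT and 0.0188 in KO, but with 250 kb bins KO had the higher median, 0.0472 against 0.0427. Bins before Dxz4 but outside the region had medians of 0.0448 in WT and 0.0306 in KO, so that the region, which lies farther away, had the lower score of the 2 groups. The side score was lower in KO in 134 of the 232 bins on mus, against 72.3% of the 458 bins. On cas 130 bins were above 0 in WT and 113 in KO, against 41.9% and 38.2% of the 458 bins. There it was lower in KO in 134 bins as well, against 52.4%.

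On mus the side score varied along the region. It was lowest on average from 4 to 6 Mb in WT, at 0.00862, and highest from 36 to 38 Mb, at 0.0365. KO was above WT in the first of these stretches, at 0.0165, and below it in the last, at 0.0197. KO was also above WT from 6 to 8 Mb, with 0.0184 against 0.0137, from 8 to 10 Mb, with 0.0141 against 0.0107, and from 14 to 16 Mb, with 0.0262 against 0.0183. In the remaining stretches of 2 Mb it was below WT, as from 18 to 20 Mb, where WT had 0.0148 and KO 0.00264. With 250 kb bins the difference from 6 to 8 Mb was wider, at 0.00922 in WT and 0.0444 in KO. The highest single bin of the region that holds a gene was that of Sowahd and Rpl39, a ribosomal protein gene, with 0.0554 in WT and 0.00608 in KO. The next was that of Usp11, a deubiquitinase gene, with 0.0503 in WT and 0.0204 in KO. Both of these genes were picked after their values had been seen.

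Just 4 bins of the region were below 0 on mus in both genotypes, and they were adjacent, from 18.9 to 19.3 Mb. In WT they had side scores of -0.0173, -0.000494, -0.00793 and -0.00563, and in KO -0.00624, -0.0105, -0.0272 and -0.00219. The neighbouring bin at 19.3 Mb had 0.0326 in WT and 0.0106 in KO, and the one at 18.8 Mb 0.00815 and -0.00645. In WT the bins from 17.5 to 18.8 Mb were all above 0, while in KO those at 18, 18.1, 18.2, 18.6 and 18.8 Mb were below 0 as well, among them the bin of Kdm6a with 0.0024 in WT and -0.0137 in KO. The 4 bins thus stood out from both sides in WT, and from the right side alone in KO. On cas their mean was 0.0238 in WT and 0.0166 in KO. At 250 kb the bin from 19 to 19.25 Mb had on mus 0.00988 in WT and -0.0292 in KO, and the next bin 0.0554 and 0.0176. The score was thus lower than in the next bin in both genotypes, but in WT it stayed above 0. In WT it was not unusual for the region at 250 kb, where 79 of 93 bins were above 0 and the lowest had -0.0255. In KO it was the lowest of the region. The stretch holds no midpoint of a protein-coding gene. It holds the pseudogene Gm5383, the lncRNA genes Gm14636 and Gm41892, and the microRNA genes Mir221 and Mir222, which lie within the lowest bin in KO. Their mature RNAs, known to act in cell cycle control and to be made in fibroblasts, are shown because they are the best known products of the stretch. Capitals mark the seed, bases 2 to 8, which is the same in both.
mmu-miR-221-3p, chrX:19146307-19146329, minus strand: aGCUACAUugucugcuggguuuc
mmu-miR-222-3p, chrX:19146901-19146923, minus strand: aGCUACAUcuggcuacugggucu
The matrices hold no measurement of either RNA.

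**Figure D3:**
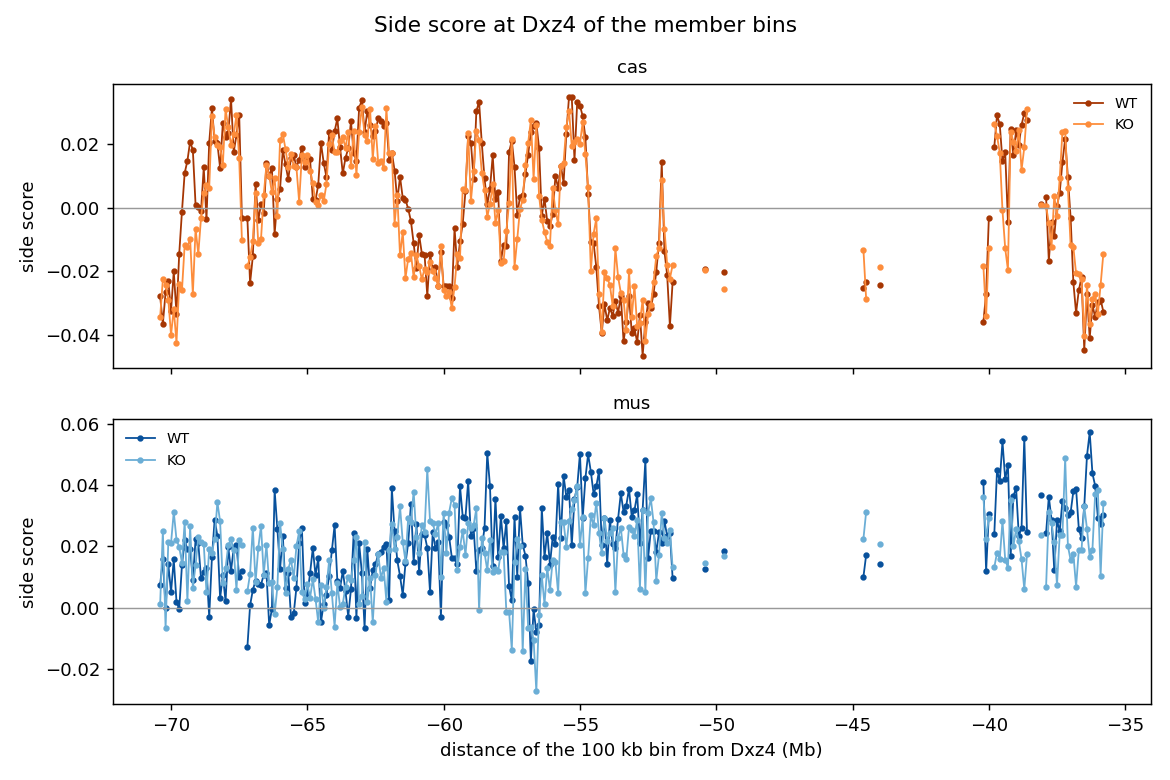
Side score at Dxz4 of each 100 kb bin (vertical axis: mean correlation with the 10 Mb before Dxz4 minus that with the 10 Mb after it) against its distance from Dxz4 in Mb (horizontal axis), cas above and mus below, on different scales. Dark points are WT and light points KO, and lines break where bins had no data; nearly all mus bins lie above 0, and the lowest of each genotype lies in a dip near -57 Mb, the bins from 18.9 to 19.3 Mb.

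The third comparison concerned compartments. The first principal component of the average of both cas matrices ordered all bins of the chromosome. The 20% at its gene-rich end were taken as class A and the 20% at its other end as class B. The region held 73 A bins, 31.5% of its bins, and 16 B bins, 6.90%. A bin's compartment score is its average over A bins less its average over B bins at least 2 Mb away. On cas a bin above 0 is called of the A kind and a bin below 0 of the B kind. The classes came from cas, so a large score on cas follows from their construction in part. On cas the scores of the region ran from -0.129 to 0.113 in WT and from -0.117 to 0.0960 in KO. On mus they ran from -0.00871 to 0.0161 in WT and from -0.0106 to 0.0131 in KO, a much smaller range. The median size of the score was 0.0599 in WT on cas and 0.00506 on mus.

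The same held for pairs. In WT on cas, pairs of 2 A bins within the region had a mean correlation of 0.0370, pairs of 2 B bins 0.0716 and mixed pairs -0.0488. In KO these were 0.0403, 0.0783 and -0.0461. On mus, pairs of A bins had 0.0118 in WT, pairs of B bins 0.0216 and mixed pairs 0.0158, so that mixed pairs were not the lowest. Pairs of B bins numbered 61. At matched separations the A/B contrast, same class minus mixed, was 0.0852 in WT and 0.0887 in KO on cas, and -0.00251 and -0.00175 on mus. At 250 kb the order of the genotypes turned on cas, with 0.281 in WT and 0.262 in KO, and also on mus, with 0.000296 and -0.00412. All other pairs of the chromosome on cas had 0.0974 in WT and 0.0864 in KO, and 0.360 and 0.318 at 250 kb.

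Along the region, cas had long stretches of each kind. The bins from 12 to 14 Mb had the highest mean score, 0.0710 in WT and 0.0598 in KO, and 19 of these 20 bins were of class A. The bins from 36 to 38 Mb had 0.0498 and 0.0324, and those from 10 to 12 Mb 0.0469 and 0.0368. The bins from 22 to 24 Mb were at the other end with -0.0878 and -0.0695, and those from 14 to 16 Mb, which hold 1 protein-coding gene, had -0.0477 and -0.0589. The widest difference between genotypes in stretches of 2 Mb was from 6 to 8 Mb, where the mean was 0.0370 in WT and 0.00570 in KO. The SD over its 20 bins was 0.0461 in WT. On mus these 20 bins had 0.00146 in WT and 0.00212 in KO. The largest means on mus were 0.00980 in WT from 18 to 20 Mb, with 0.00451 in KO, and 0.00675 in KO from 12 to 14 Mb, with 0.00655 in WT.

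**Figure D4:**
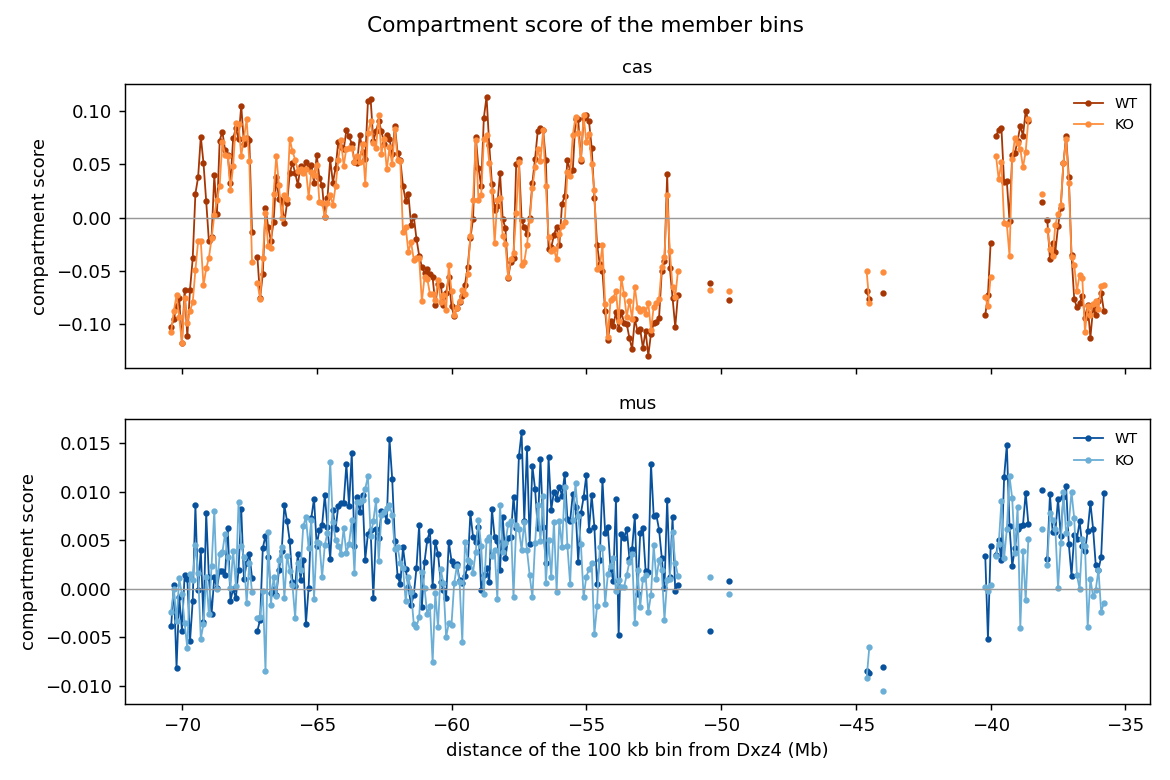
Compartment score of each 100 kb bin of the region (vertical axis) against its distance from Dxz4 in Mb (horizontal axis), cas above and mus below, on different scales; lines break where bins had no data. Dark points are WT and light points KO; on cas the genotypes follow each other closely except near its left end, at the bins of Bmp15 and Shroom4, and the largest mus score, 0.0161, is far below the largest cas score, 0.113.

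Gene content went with the score on cas. Class A was taken as the gene-rich end, so over the whole chromosome this direction was set in advance. The 101 bins of the region with a protein-coding gene had a median score of 0.0377 in WT, and the 131 bins without one -0.0297. The 27 bins with at least 3 genes had 0.0653. In KO the medians were 0.0223, -0.0390 and 0.0526. On mus the bins with a gene had 0.00483 in WT and the bins without one 0.00486, but in KO they had 0.00339 and 0.00195. With 250 kb bins those with a gene were the higher ones on mus too, with 0.0177 against 0.00769 in WT and 0.00578 against -0.00429 in KO.

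The promoters of the genes in the region followed the same order. A promoter was found for 164 of the 187 genes in bins with data. The 122 genes in bins with a score above 0 on cas in WT had a median of 9 CG in the 250 bases before the start, and the 42 genes in bins below 0 had 2.5. Genes in class A bins had a median of 11. Over the protein-coding genes of chromosome X the median was 6, and over 1 promoter for each of 27025 genes it was 6. At least 10 CG were present in 45.9% of the promoters of genes in bins above 0, in 11.9% of those of genes in bins below 0 and in 38.2% of all promoters. CG reads the same on both strands. One of the genes in bins below 0 had 48, so the 2 groups overlapped. The site that HindIII cuts, AAGCTT, was present in 4.27% of the promoters in the region and in 6.16% of all promoters.

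In WT 119 of the 232 bins, 51.3%, had a score above 0 on cas, against 35.4% of all 1461 bins. In KO 108 bins, 46.6%, were above 0, against 34.6%. On mus 200 bins, 86.2%, were above 0 in WT, against 53.9%, and 169 bins, 72.8%, in KO, against 54.1%. The region's scores were thus above 0 more often than those of the chromosome as a whole on both alleles and in both genotypes. On mus the A/B contrast within the region was -0.00251 in WT and -0.00175 in KO, so a score above 0 there does not mark a bin as of the A kind. The share was lower in KO than in WT on both alleles. With 250 kb bins the shares on cas were 54.8% in WT, against 35.7% of all bins, and 44.1% in KO, against 33.5%, and on mus 66.7% against 45.7% and 55.9% against 46.1%.

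Between WT and KO, 19 bins of the region changed sign on cas, 8.19%, against 6.09% of all bins. Of the 19, 15 went from above 0 to below it and 4 the other way. In the rest of the chromosome 35 cas bins went each way. On mus 65 bins changed sign, 28.0%, against 33% of all bins. Of these, 48 went from above 0 to below it and 17 the other way. In the rest of the chromosome 192 mus bins went down through 0 and 225 went up. Of the 250 kb bins, those that changed sign in the region were 10 of 93 on cas, 10.8% against 6.29% of all bins, all from above 0 to below it. On mus they were 24, 25.8% against 36.1%. Among the region's bins whose WT score was larger in size than the median of the chromosome on the same allele, 1.12% changed sign on cas and 19.5% on mus. The share over all bins of the chromosome under this filter was not computed.

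The score was lower in KO in 136 bins on cas, 58.6%, against 41.3% of all bins, and in 151 bins on mus, 65.1%, against 50.5%. At 250 kb the shares were 65.6% on cas, against 39.1% of all bins, and 66.7% on mus, against 47.3%. The median difference, KO minus WT, was -0.00331 in the region on cas and 0.00574 in the rest, where the scores are mostly below 0. On mus it was -0.00136 in the region and 0.000284 in the rest. Across the 232 bins, which are neighbours and share the same A and B bins, r between the WT and KO scores was 0.944 on cas and 0.394 on mus. In the rest r was 0.951 on cas and 0.425 on mus.

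The bins with the largest differences on cas lay near the centromeric end. The bin of Shroom4 had a score of 0.0509 in WT and -0.0635 in KO, and the bin of Bmp15 0.0376 and -0.0223. They belong to a run of 5 adjacent bins from 6.2 to 6.6 Mb, all of which were above 0 in WT and below 0 in KO. On mus the bin of Shroom4 had -0.00342 and -0.00366. At 250 kb the bin of Bmp15 had 0.230 in WT and -0.168 in KO on cas. The neighbouring bin of Nudt10, which encodes an inositol phosphate hydrolase, had -0.0383 in WT and -0.0794 in KO, so it was of the B kind in both.

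Other bins with lower scores in KO on cas stayed above 0. The bin of Timm17b, Pcsk1n, Eras, Hdac6 and Gata1 had 0.105 in WT and 0.0579 in KO. HDAC6 is a cytoplasmic deacetylase of tubulin, and GATA1 the master transcription factor of red cell formation. Dusp21, a phosphatase gene, had 0.0501 and 0.00412. The largest difference in the other direction was that of a bin without a protein-coding gene at 23 Mb, with -0.129 in WT and -0.0798 in KO. Among the bins with a gene, higher scores in KO differed by less. The bin of 6030498E09Rik had -0.0761 in WT and -0.0441 in KO, and the bin of Slc6a14 -0.101 and -0.0751, both of the B kind in both genotypes. The bin of Rhox12, Rhox13 and Zbtb33, a transcriptional repressor, had -0.0322 and -0.00664. The bins of 4930402K13Rik and H2al1o crossed from -0.0039 to 0.0219 and from -0.0047 to 0.0208. All 10 of the named differences in bins with a gene had the same direction at 250 kb, as the choice of bins required.

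On mus the differences were far smaller. The lowest was that of the bin of Ssxb5, with 0.00548 in WT and -0.00854 in KO, and -0.0163 for the difference at 250 kb. Then came the bins of Sowahd and Rpl39, with 0.00991 and -0.00122, of Zfp182, Spaca5 and Zfp300, with 0.00636 and -0.00467, and of Usp11, with 0.0117 and 0.00121. The bin of C330007P06Rik, Ube2a and Nkrf had 0.00642 and -0.00401. Ube2a encodes a ubiquitin-conjugating enzyme that acts on histone H2B. The highest was that of a bin without a gene at 10.3 Mb, with -0.00364 in WT and 0.00736 in KO, and 0.0144 for the difference at 250 kb. The highest among bins with a gene was that of H2al1a, a histone variant gene of the testis, with 0.00307 in WT and 0.0131 in KO, but its difference at 250 kb was only 6.59e-05. The bins of Nudt11 and Ezhip had -0.00543 and 0.00151, of Fundc1 0.00193 and 0.00865, of Il13ra1 and Zcchc12 0.00291 and 0.009, and of Atp6ap2 0.00568 and 0.0116. Ezhip encodes an inhibitor of the Polycomb methyltransferase, Fundc1 a receptor for the removal of mitochondria, and Il13ra1 a cytokine receptor.

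Genes of the region were also described in 8 lists, which overlap and often share bins. The median difference, KO minus WT, over all bins of the chromosome was 0.00421 on cas and -8.97e-05 on mus. The counts of the lists can be read against all 101 bins of the region with a protein-coding gene. On cas 65.3% of these were above 0 in WT and as many in KO, 61.4% in both, and 63.4% were lower in KO. On mus 82.2% were above 0 in WT and 75.2% in KO, 58.4% were lower in KO and 24.8% changed sign. Over all bins of the chromosome, lower scores in KO made up 41.3% on cas and 50.5% on mus, as given above. At 250 kb, 68.3% of the region's bins with a gene were lower in KO on cas and 60.0% on mus. Of the 36 housekeeping genes, in 23 bins, all bins were above 0 on cas in both genotypes, with a median of 0.0765 in WT and 0.0641 in KO. The score was lower in KO in 16 of the 23 bins on cas and in 14 on mus. Rpl39 had 0.0997 in WT and 0.0618 in KO on cas, and Timm17b is given above. Ebp, an enzyme of cholesterol synthesis, and Wdr13, in the same bin, had 0.0747 and 0.0921, but their difference was -0.0106 at 250 kb.

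Genes known to escape X inactivation differed among themselves. Ddx3x, an RNA helicase gene, had 0.0692 in WT and 0.0730 in KO on cas, and 0.00776 and 0.00791 on mus. Its difference on cas turned at 250 kb, where it had 0.269 in WT and 0.231 in KO. Kdm6a, a histone H3 lysine demethylase gene, had 0.0547 and 0.0515 on cas and 0.0136 and 0.00616 on mus. At 250 kb the bin with the midpoint of Kdm6a, shared with Dusp21, had 0.0580 in WT and -0.00777 in KO on cas, a wider difference than at 100 kb. 1810030O07Rik had 0.109 and 0.0792 on cas, and Shroom4 is given above. In this list 3 of 4 bins were above 0 on mus in either genotype.

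Of the 12 chromatin and transcription regulators, in 11 bins, 10 bins were above 0 on cas in both genotypes and 7 were lower in KO. The widest difference was that of Hdac6 and Gata1, given with their bin. Zfp182, a zinc finger gene, had 0.0185 in WT and 0.0257 in KO, but a difference of -0.0338 at 250 kb. Zbtb33 was below 0 in both. On mus 9 of the 11 bins were above 0 in each genotype, and 4 changed sign.

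On cas the lists of neuronal genes and of blood and immune genes were on the A side too. Their bins are in part those of housekeeping genes, as for Syn1 with Araf, Pcsk1n with Timm17b and Kcnd1 with Slc35a2. Tspan7 is also in the list of fibroblast and membrane genes, and expression was not measured here. All 12 neuronal genes lay in bins with data, and of their 11 bins 10 were above 0 on cas in WT and 11 in KO. Pcsk1n, which encodes an inhibitor of a prohormone convertase, had 0.105 and 0.0579, and Maob, a monoamine oxidase gene, 0.0465 and 0.0162. Kcnd1, a potassium channel gene, had 0.0734 and 0.0876, but a difference of -0.0263 at 250 kb. Tmem255a had -0.00808 and 0.00321, and the 250 kb bin of its midpoint had a difference of 0.0370. Of the 8 bins of blood and immune genes, 8 were above 0 on cas in WT and 7 in KO. Cybb, a subunit of the phagocyte oxidase, had 0.0153 and -0.000851. Xk, a blood group protein gene, had 0.0377 and 0.0579, and Pim2, a kinase gene, shared the bin of Kcnd1. The difference for Xk was -0.00929 at 250 kb.

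Of the 10 fibroblast and membrane genes, all bins were above 0 on cas in both genotypes and 8 were lower in KO. Il13ra1 had 0.0836 in WT and 0.0522 in KO, and Plp2, a membrane protein gene, 0.0742 and 0.0481. Pgrmc1, a heme-binding membrane protein gene, had 0.0604 and 0.0745, with a difference of -5.29e-05 at 250 kb, and Lamp2, a lysosomal membrane protein gene, 0.0506 and 0.0512. All 7 bins of liver and eye disease genes were above 0 on cas in both genotypes, and 6 were lower in KO. Cacna1f, a calcium channel gene of the retina, had 0.0742 and 0.0481, and Clcn5, a chloride transporter gene, 0.0805 and 0.0707. Otc, an enzyme of the urea cycle, had 0.0424 and 0.0413, and Rp2, a retinal degeneration gene, 0.0921 and 0.0941. On mus 6 of these 7 bins were higher in KO at 100 kb, against 41.6% of the region's bins with a gene. At 250 kb only those of Otc and Cacna1f were, and that of the midpoint of Clcn5, by 0.00249.

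The testis, ovary and placenta genes were the exception. Of 32 names, 13 genes lay in bins without data and 16 in 11 bins with data. Of these 11 bins, 4 were above 0 on cas in WT and 3 in KO, with a median of -0.00898 and -0.0194. Bmp15 is given above. Ssxb3 had -0.0367 in WT and -0.0611 in KO, with a difference of 0.001 at 250 kb. In the Rhox cluster the bin of Rhox6 and Rhox8 had -0.00188 and -0.0115, that of Rhox9 -0.0388 and -0.0298, and that of Rhox10 and Rhox11 -0.0235 and -0.0364. On mus all 4 bins of these Rhox genes, from Rhox6 to Rhox13, were above 0 in both genotypes, between 0.00241 and 0.00973. Many of these genes are near copies of each other, and how reads that match several copies were treated was not stated, so their bins are uncertain.

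**Figure D5:**
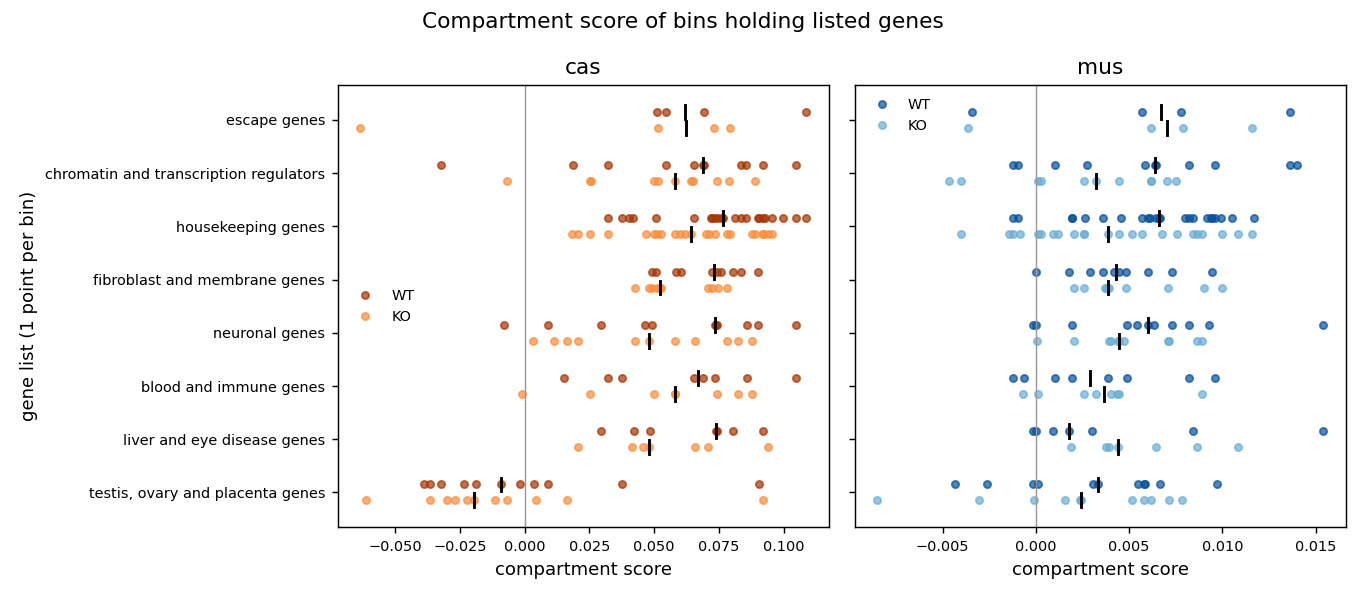
Compartment score (horizontal axis) of the bins that hold the genes of each of 8 lists (vertical axis), cas on the left and mus on the right, on different scales. Each point is 1 bin, dark in WT and light in KO, and the black bars are medians; on cas the bins of 7 lists lie mostly above 0, and those of testis, ovary and placenta genes mostly below it.

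The last comparison concerned local borders and distant pairs. The boundary score of a bin was the mean correlation within 1 Mb on either side minus that across it, and could be computed for 187 bins of the region. Its median on cas was 0.0267 in WT and 0.0280 in KO, and on mus 0.00622 and 0.00513. Bins outside the region had medians of 0.0101 in WT on cas and 0.00311 on mus. The strongest boundary on cas in WT was at the bin of Ssxa1, 21.1 Mb, with 0.0962 in WT and 0.0945 in KO. The one at Cypt1, 16.5 Mb, had 0.0735 and 0.0656. At Cask, Gpr34 and Gpr82, 13.6 Mb, the score was 0.0666 in WT and 0.0949 in KO, and KO was above WT with windows of 500 kb and 2 Mb too. At 6.2 Mb, next to Bmp15, it was 0.0616 in WT and 0.0211 in KO, and 0.0505 and 0.00746 with windows of 500 kb. These boundaries were chosen for their height in WT, so a lower value in KO is a description only.

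On mus the strongest boundaries in WT were at 19.8 Mb between Chst7 and Tex13c3, with 0.0208 in WT and 0.0159 in KO, and at Klhl13, 23.2 Mb, with 0.0199 and 0.0146. Those at 18.7 Mb and at Fundc1, 17.5 Mb, had 0.0171 and 0.00873, and 0.0160 and 0.0118. With windows of 2 Mb, KO was above WT at 19.8, 18.7 and 17.5 Mb, so the direction on mus depended on the window.

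Squares of 3 by 3 bins were ranked by their mean correlation among squares at like separation on the whole chromosome, and the 3 highest of the region in WT were taken on each allele. On cas the highest joined the stretch from Timm17b to Ebp, around 8 Mb, with that of Usp9x and Ddx3x, around 13.1 Mb, both gene-rich. Its mean was 0.116 in WT and 0.0713 in KO, and 0.00887 and 0.00170 on mus. Another joined the stretch of Uba1, Cdk16, Araf, Syn1 and Timp1 around 20.7 Mb with that of Rpl39, Upf3b and Ndufa1 around 37 Mb, at 0.0932 in WT and 0.0696 in KO. The other joined stretches without a protein-coding gene around 5.8 and 22.5 Mb, at 0.0951 and 0.0634. On mus all 3 had 1 side between 23.6 and 23.9 Mb, next to Wdr44 and Gm4907. The highest joined it to the stretch of Pgrmc1 and Akap17b around 36.5 Mb, 12.9 Mb away across the duplicated block, with 0.0816 in WT and 0.0307 in KO, and with 0.241 and 0.114 at 250 kb. The others had 0.0713 and 0.0469, and 0.0584 and 0.0389. All 6 squares were lower in KO on the allele on which WT chose them, which their choice favours. At 250 kb 5 of the 6 were lower, and the mus square that joins 23.7 with 38.6 Mb was higher in KO, with 0.135 in WT and 0.145 in KO.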

How the data were processed

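The 4 samples, 2 WT and 2 Sirt7-/-, were grouped by genotype as the labels give it. Fixation was with 2% formaldehyde and digestion with HindIII, per the labels' protocols. The authors deposited 8 chromosome X matrices (both genotypes, alleles and bin sizes), and per the file headers each value is a score in HOMER's matrix format, a correlation coefficient between bins. The build mm10 and the tools Juicer, HOMER, Bowtie2 and cutadapt are named in the submitters' processing notes. How contacts were normalized, how reads were split by allele and how many there were was not given in the sources used here. The series text speaks of an Xist binding assay, while labels and headers describe Hi-C. Rows that were all 0 in any matrix were left out.

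Values were computed with numpy 2.4.6 and pandas 2.3.3 at 100 kb, over pairs with a separation of 2 Mb or more, and checked at 250 kb. Genes were placed by their midpoints from RefSeq (GRCm38.p6, the build of the files), and promoter and microRNA sequences were read from RefSeq's tables. At 250 kb a gene or 100 kb bin took the value of the bin holding the middle of its 100 kb bin. A middle on a border went to the later bin. Kdm6a, Tmem255a and Clcn5 were placed there by their own midpoints instead. With replicates combined, no test was run. The functions were tested on simulated matrices. The region and gene lists were chosen with earlier results of these data known. Of the 8 lists, Phf16, Sept6 and Gm14511 matched no gene of the table, and 2 genes lay outside the region. The genes named are the 2 highest and 2 lowest of each list by KO minus WT score on cas, on each allele the 5 highest and 5 lowest bins with a gene and the same sign at 250 kb, those at the 4 strongest boundaries and 3 highest squares per allele in WT, and Kdm6a, Ddx3x, Shroom4, Bmp15 and the Rhox cluster. Any other gene was picked with its values known. The alternatives tried were 250 kb bins, a separation of at least 5 Mb, division by the SD of each matrix, subtraction of the mean of each separation, omission of the weakest 10% of bins, classes from gene number, and leaving out each block of 10 Mb.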

Additional observations from a re-analysis of the deposited data

Results flagged for a closer look

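The mean correlation within the region differed between genotypes in opposite directions on the 2 alleles, by -0.00277 on mus and by 0.00129 on cas, KO minus WT. With 1 matrix for each genotype and allele, this difference between alleles was not tested. With 250 kb bins the differences were again opposite, at -0.00773 and 0.00829, but with the mean of each separation subtracted both were above 0.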

How the results depend on the processing

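No paired analysis was possible because each matrix already holds both replicates of its genotype, and no replicate could be left out. With 250 kb bins, KO minus WT was -0.00773 on mus and 0.00829 on cas for the mean within the region, 0.00102 on mus for the region contrast, and -0.00442 on mus and -0.0189 on cas for the A/B contrast, both of which reversed. Mus minus cas was 0.0485 in WT and 0.0325 in KO. Smaller bins hold fewer reads, and the cause of these shifts was not tested. With the mean of each separation subtracted, the mean within the region reversed to 0.00145 on mus and was 0.00294 on cas, and mus minus cas in WT was 0.00892. With a separation of at least 5 Mb the A/B contrast reversed to -0.000164 on mus and was 0.000673 on cas. Without the weakest bins it reversed to -0.000126 on mus, and with classes from gene number it was 0.00395. With division by the SD, put back on the common scale, it was 0.00786 on cas, and the region contrast was 0.000711 on cas. Among the region's bins with a larger WT score, 1.12% changed sign on cas and 19.5% on mus. The median over bins of each bin's KO minus WT side score at Dxz4, examined after the data were seen, was -0.00254 on mus and -0.00183 on cas, -0.00933 and -0.00522 at 250 kb, and -0.000166 on cas with windows of 20 Mb. The difference between the 2 genotypes' medians on mus turned at 250 kb, where KO had the higher median, 0.0472 against 0.0427.

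Leaving out each block of 10 Mb in turn gave KO minus WT from -0.00439 to -0.0021 on mus and from 1.82e-05 to 0.0027 on cas for the mean within the region, from 0.00326 to 0.00918 and from 9.73e-05 to 0.00924 for the region contrast, and from -0.00104 to 0.00948 and from 0.00065 to 0.00883 for the A/B contrast. Mus minus cas ran from 0.0125 to 0.016 in WT and from 0.00944 to 0.0111 in KO, and the share that changed sign from 24.2% to 32.6% on mus and from 5.91% to 10.1% on cas. All 20 differences of the named bins kept their direction at 250 kb, by which they were chosen, and after division by the SD. Of the boundary differences on mus, 3 reversed with windows of 2 Mb, to 0.00332 at 19.8 Mb, 0.00348 at 18.7 Mb and 0.00587 at 17.5 Mb, and the last also with windows of 500 kb, to 0.0178. At 23.2 and 6.2 Mb, windows of 2 Mb gave no value. Depth is unknown, so what it limits could not be measured.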
